A study of Mus musculus with 15 samples.

Results

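The acute-phase genes Saa3, Lrg1, Hp, Wfdc21 and Wfdc17 were followed in whole blood of mice from a study of oral tumors. They were selected on their levels in these same libraries, so their levels and differences are given as a description and carry no test. The 5 genes are 5 of the 55416 gene identifiers in the count tables, and 5 of 5 passed the filter on low counts, as did 13421 genes in all. Identifiers were matched to gene symbols by the mouse annotation of the genome build GRCm39.

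The study transplanted 4MOSC1 cells, a line of mouse head and neck squamous cell carcinoma, into the tongues of wild-type C57BL/6 mice, and the labels give 10 days of growth. Blood from a cheek bleed was sequenced in 15 libraries, each from a separate mouse. The untreated group (5 libraries) received no antibody and no surgery. The early and late groups (5 libraries each) received 2 doses of αCTLA-4, an antibody that blocks the T cell checkpoint receptor CTLA-4. An early or a late neck dissection (ND) followed, the surgical removal of neck lymph nodes, those that drain the tongue among them. The study's methods describe the mice as female and some weeks old, and the labels give neither age nor sex. The growth protocol is the same on every label, untreated libraries included, and it is not certain that the untreated mice carried tumors. The sources disagree on whether blood was drawn before or after the late ND, so the time from surgery to bleed in the late group is uncertain. If the bleed came after it, no group had the antibody without surgery, and effects of the antibody and of surgery cannot be told apart against the untreated mice. If it came before, the late mice had been given the antibody alone when bled.

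The acute-phase response is the change in plasma proteins that follows infection, injury or surgery. Interleukin-6 and interleukin-1 act on hepatocytes through STAT3, C/EBP and NF-kB factors, and the liver then releases serum amyloid A, haptoglobin and other proteins into plasma. Some of the same genes are also transcribed in blood leukocytes and macrophages, and a blood sample is expected to hold RNA of the cells in it rather than of the liver. Levels below are those of transcripts in the whole sample, which can also hold RNA of the skin from a cheek bleed, and in bulk RNA fewer cells of a type and less RNA per cell cannot be told apart.

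Libraries held 5527108 to 7182346 counts on genes in the early group, 5862888 to 10796099 in the untreated group and 7849602 to 13924361 in the late group. Several libraries stood apart before any comparison was made. Hemoglobin genes took 14.9% to 29.3% of gene counts in the late group, 38.3% to 64.1% in the early group and 31.6% to 61.7% in the untreated group. Sequence of the 18S ribosomal RNA was scarce in untreated 2, late 2 and late 3, at 768, 315 and 523 CPM (counts scaled to a common library size, here by library totals), whereas the other 12 libraries held 13450 or more. Genes of the sebaceous gland, a skin structure, summed to 1215 CPM in untreated 5, 632 in early 3 and 772 in late 5, against at most 239.8 in any other library. Alignments that were not unique, which are not counted, made up 44.1% to 57.9% of the counter's tally in the late group, 66.4% to 75.2% in the early group and 64.8% to 73.1% in the untreated group, without overlap between late and the others, and the cause was not tested. Levels are CPM scaled by the trimmed mean of M-values (TMM), which sets libraries level on the bulk of their genes, since the hemoglobin share would otherwise lower every other gene. The sources used here mention no molecular identifiers, so counts can include copies of the same molecule. A limit drawn from a count covers counting error only.

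**Figure D1:**
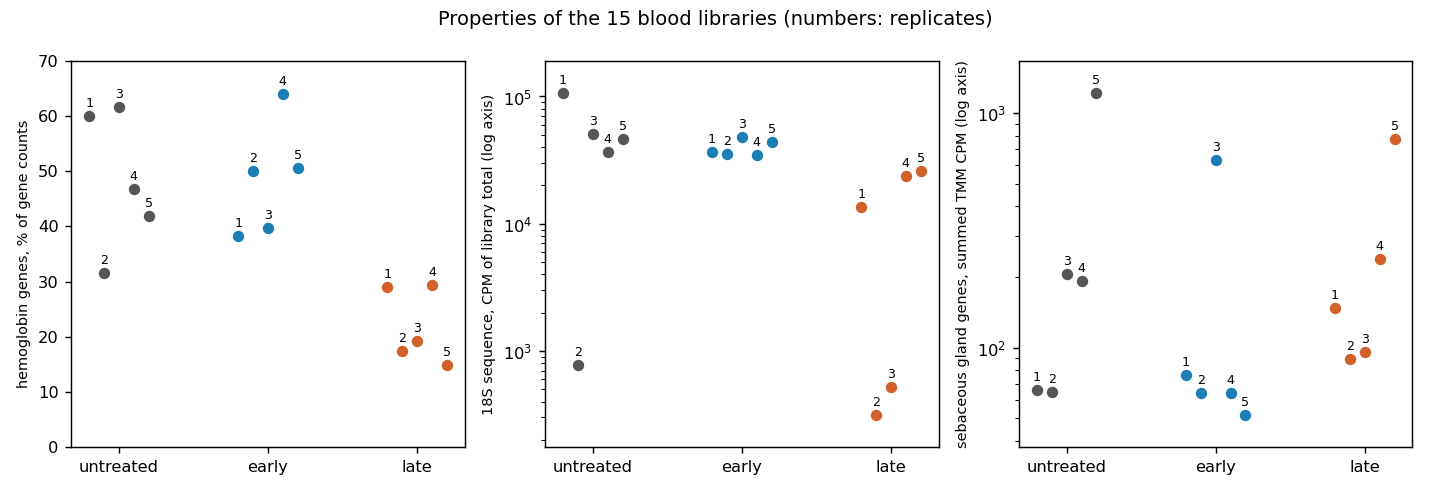
Hemoglobin genes as a percentage of gene counts, 18S sequence in CPM of the library total (log axis) and summed TMM CPM of 8 sebaceous gland genes (log axis), by group; each point is 1 library, numbered by replicate. The late libraries hold 14.9% to 29.3% hemoglobin counts, below every untreated and early library.

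Saa3 encodes a serum amyloid A protein that, unlike its liver paralogs, is made mostly outside the liver, by macrophages among other cells. It lies at chr7:46361422-46365576 on the minus strand (GRCm39, ENSMUSG00000040026), in a cluster with Saa1, Saa2 and Saa4. Its promoter is shown beside that of Saa1, a liver paralog, because more reads from blood were counted for Saa3. The windows run from 250 bases before to 50 after the annotated start (RefSeq, GRCm38.p6; Saa3 chr7:46715627-46715926, minus strand; Saa1 chr7:46742931-46743230, minus strand), and capitals mark the match to a C/EBP motif, TTGCNNAA, searched on both strands.
Saa3: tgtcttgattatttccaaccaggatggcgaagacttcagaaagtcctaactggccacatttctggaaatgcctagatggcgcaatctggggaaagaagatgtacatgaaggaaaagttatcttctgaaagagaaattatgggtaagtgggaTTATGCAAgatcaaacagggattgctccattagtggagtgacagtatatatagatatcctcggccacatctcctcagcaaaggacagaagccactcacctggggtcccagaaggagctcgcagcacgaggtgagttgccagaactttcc
Saa1: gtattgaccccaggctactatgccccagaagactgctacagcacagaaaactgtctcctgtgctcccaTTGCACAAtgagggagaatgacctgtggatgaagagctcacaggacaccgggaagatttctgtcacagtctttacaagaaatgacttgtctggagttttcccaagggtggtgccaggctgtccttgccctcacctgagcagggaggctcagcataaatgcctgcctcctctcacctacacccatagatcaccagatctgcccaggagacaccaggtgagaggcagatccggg
The match began at position -99 in Saa3 and at -182 in Saa1, counted from the start. Of 32851 promoter windows of this length, 10.8% held the motif. A match is a string of letters in the window and does not show that a factor binds there.

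Saa3 stood at 22.9, 3.83, 0, 10.3 and 5.80 TMM CPM in untreated 1 to 5. In early 1 to 5 it stood at 0.382, 0.663, 12.04, 1.80 and 6.98 TMM CPM, and in late 1 to 5 at 103, 3.97, 4.64, 24.2 and 20.5. Late 1 was far above all other libraries, late 4 and late 5 were above every early library, and late 2 and late 3 lay inside the range of both other groups. The counts behind these values were low, 3 to 88 in the early libraries and 0 to 61 in the untreated ones, against 99 to 1132 in the late ones. For untreated 3, a count of 0 allows a level of up to 0.863 CPM, the level of 3 counts.

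The mean level of Saa3 was 31.2 ± 41.0 TMM CPM (SD, n = 5) in the late group, 8.57 ± 8.84 in the untreated group and 4.38 ± 5.05 in the early group. No neighboring pair in this order differed by more than the larger SD, and the late SD exceeded the late mean. The log2 fold change of the late over the early group was 2.76 (SE 0.99), 1.54 (SE 0.81) without late 1 and 3.81 (SE 1.15) without early 3. Against the untreated group it was 1.99 (SE 0.93), and 0.73 (SE 0.77) without late 1, so 1 mouse carried much of the late value.

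The other serum amyloid A genes were at or next to 0. Saa4 had no count in any of the 15 libraries. Saa1 had 1 count and Saa2 had 3, all in late 4, and 0 elsewhere. A count of 0 allows at most 0.120 CPM in late 2, the library where this limit is lowest, and 1.21 CPM in untreated 1, where it is highest. Saa1 and Saa2 are near-identical copies, and reads that fit both were not counted, so their level is uncertain.

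Hp encodes haptoglobin, the plasma protein that binds free hemoglobin, and neutrophils store it in granules as well. It lies at chr8:110301759-110305804 on the minus strand (GRCm39, ENSMUSG00000031722). Hp stood at 452, 503, 263, 534 and 484 TMM CPM in untreated 1 to 5. In early 1 to 5 it stood at 239, 175, 529, 199.5 and 382 TMM CPM, and in late 1 to 5 at 584, 399, 648, 960.3 and 492. Late 1, 3 and 4 were above every other library, whereas early 3 lay at the level of the untreated libraries and untreated 3 lay below early 3 and early 5. Per kilobase of exon, Hp was the most abundant of the 5 genes, with a mean of 362 CPM per kb in the late, 263 in the untreated and 179 in the early group.

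Lrg1 encodes leucine-rich alpha-2-glycoprotein, a secreted protein that modulates TGF-beta signaling and is also held in neutrophil granules. It lies at chr17:56426283-56429001 on the minus strand (GRCm39, ENSMUSG00000037095), and 64.9% of its exon bases lie opposite exons of the noncoding gene Gm56918. Reads from the 2 strands cannot be told apart if the counting did not use strand, which the sources used here do not state. Its promoter window (RefSeq, GRCm38.p6, chr17:56121897-56122196, minus strand) is shown as the gene whose late and early groups lay farthest apart beside their spread, with the letters TATAAA on the gene's own strand in capitals, at position 12 after the annotated start. A TATA box lies before the start, so this match is not taken for one.
Lrg1: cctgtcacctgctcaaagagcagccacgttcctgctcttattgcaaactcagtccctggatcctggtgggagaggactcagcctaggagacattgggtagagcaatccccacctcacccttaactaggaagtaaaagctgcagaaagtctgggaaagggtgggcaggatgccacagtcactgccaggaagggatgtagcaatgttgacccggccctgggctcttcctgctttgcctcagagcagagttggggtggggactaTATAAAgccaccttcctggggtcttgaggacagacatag
Of the 32851 windows, 8.32% held TATAAA on the gene's strand.

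Lrg1 stood at 227, 269.5, 108, 295 and 312 TMM CPM in untreated 1 to 5. In early 1 to 5 it stood at 97.4, 46.5, 246, 75.0 and 171 TMM CPM, and in late 1 to 5 at 334, 176, 348, 547 and 285. Late 1, 3, 4 and 5 were above every early library, and late 2 was below early 3. Per kilobase, the mean of Lrg1 was 187 CPM per kb in the late, 134 in the untreated and 70.5 in the early group.

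Wfdc21 and Wfdc17 encode small secreted proteins with a whey acidic protein (WAP) domain, the fold found in several inhibitors of leukocyte proteases. Both lie on the plus strand of chromosome 11, Wfdc17 at chr11:83594817-83597095 (ENSMUSG00000069792) and Wfdc21 at chr11:83637766-83643472 (ENSMUSG00000051748, both GRCm39). Wfdc18 lies between them. The promoter window of Wfdc17 (RefSeq, GRCm38.p6, chr11:83703806-83704105, plus strand) is shown for comparison with Lrg1, with TATAAA in capitals at position -3, nearer to the start than a TATA box lies.
Wfdc17: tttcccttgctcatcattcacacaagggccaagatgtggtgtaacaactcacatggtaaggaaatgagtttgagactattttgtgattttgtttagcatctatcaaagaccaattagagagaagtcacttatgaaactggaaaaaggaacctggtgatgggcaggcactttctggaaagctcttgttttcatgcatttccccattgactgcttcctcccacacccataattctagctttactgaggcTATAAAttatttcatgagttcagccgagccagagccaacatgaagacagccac
The RefSeq table held windows of 3 of the 5 genes, Saa3, Lrg1 and Wfdc17, and not of Hp and Wfdc21. None of these 3 windows, nor those of Saa1, Saa2 and Saa4, held the STAT motif TTCNNNGAA or an NF-kB motif, searched on both strands, which were found in 8.30% and 4.51% of all windows. That says only that these letters are not in the windows.

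Wfdc21 stood at 95.7, 97.8, 23.0, 140.1 and 79.3 TMM CPM in untreated 1 to 5. In early 1 to 5 it stood at 19.2, 7.62, 72.1, 15.9 and 51.1 TMM CPM, and in late 1 to 5 at 104, 29.1, 83.4, 121 and 69.2. The late and untreated libraries overlapped over most of their range, and early 1, 2 and 4 were below all 10 of them. Wfdc17 stood at 188, 207, 56.4, 233 and 179 TMM CPM in untreated 1 to 5. In early 1 to 5 it stood at 51.5, 22.4, 123, 42.2 and 143 TMM CPM, and in late 1 to 5 at 165, 66.5, 138, 196 and 76.7. Untreated 4 was the highest library for both genes, and the same 3 early libraries were the lowest.

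**Figure D2:**
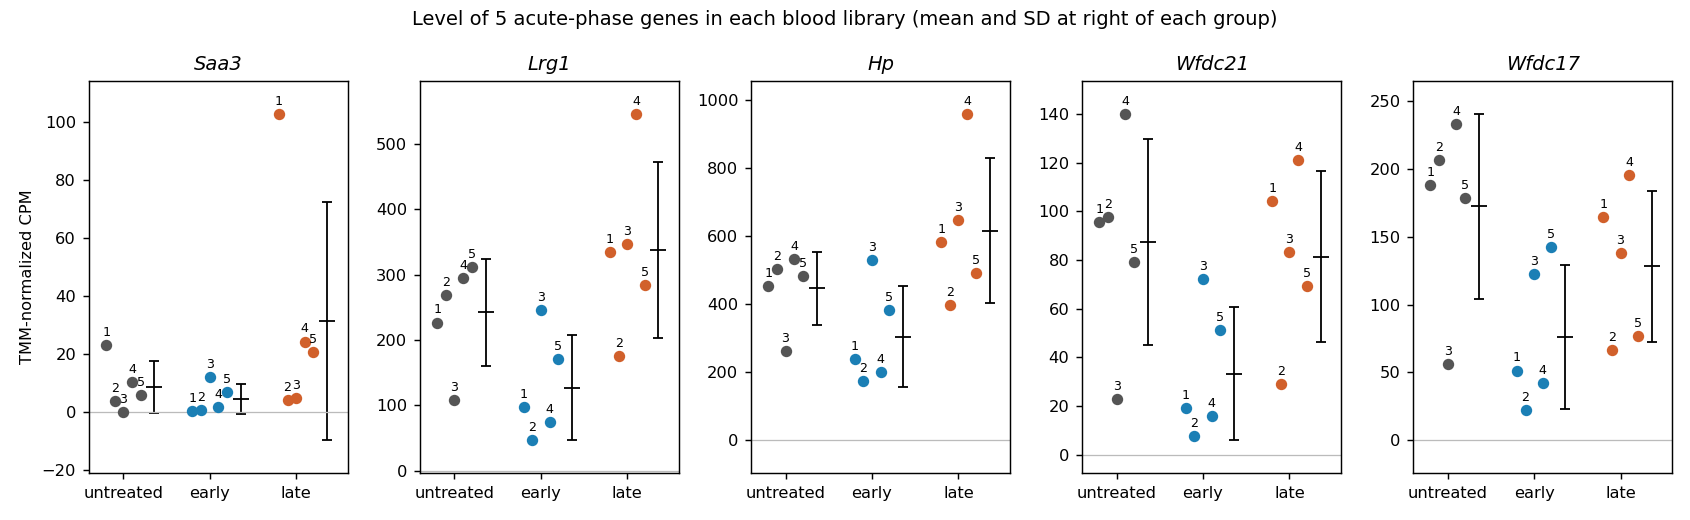
TMM-normalized CPM of Saa3, Lrg1, Hp, Wfdc21 and Wfdc17; each point is 1 library, numbered by replicate, and the bar at the right of a group is its mean and SD over 5 libraries. Early 1, 2 and 4 and untreated 3 are low for Lrg1, Hp, Wfdc21 and Wfdc17, and late 1 stands alone for Saa3 at 103.

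The order of the group means differed among the genes. It was late, untreated, early for Saa3, Lrg1 and Hp, and untreated, late, early for Wfdc21 and Wfdc17. Lrg1 averaged 338 ± 135 TMM CPM (SD, n = 5) in the late, 242 ± 81.6 in the untreated and 127 ± 80.7 in the early group. Its early mean was separated from both other means by more than the larger SD, and late and untreated were not. Hp averaged 617 ± 214 in the late, 447 ± 107 in the untreated and 305 ± 149 in the early group, and only late and early were separated by more than the larger SD. Wfdc21 averaged 87.2 ± 42.3 in the untreated, 81.4 ± 35.3 in the late and 33.2 ± 27.3 in the early group, with only the early mean separated by more than the larger SD from both others. Wfdc17 averaged 173 ± 68.2 in the untreated, 128 ± 55.8 in the late and 76.3 ± 53.0 in the early group. For Wfdc17 only untreated and early were separated by more than the larger SD.

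The first comparison, late against early, sets the blood of the late and early ND groups side by side. Across 13315 genes tested by edgeR's quasi-likelihood test, 333 were higher (2.5%) and 330 were lower (2.48%) in late at an adjusted p under 0.05. None of the 5 genes was called (0 of 5), and since they were selected from this contrast nothing is read from that count. At an unadjusted p under 0.05, 1921 genes were higher and 1242 lower by edgeR. DESeq2 called 761 higher and 646 lower, with 28599 genes given an unadjusted p before its own filter on low counts. With no filter edgeR called 886 of 28650 genes higher. Under the settings tried 0 to 5 of the 5 genes were called higher, 5 only on library totals, where 8923 of 13315 genes were higher. The other settings called at most 3, among them edgeR with no filter, and nothing is read from those counts either. In 397 genes (2.98%) every late library was above every early library, and none of the 5 genes was among them. The log2 fold changes were 1.41 (SE 0.41) for Lrg1, 1.28 (SE 0.53) for Wfdc21, 1.02 (SE 0.32) for Hp and 0.75 (SE 0.46) for Wfdc17. Of the 5 late libraries, 4 were above every early library for Lrg1, 3 for Saa3, Hp and Wfdc21 and 2 for Wfdc17. The share of all genes with such a partial separation was not computed, so these counts only describe the 5 genes.

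These values rest on a few libraries. Early 3 was the highest early library for Saa3, Lrg1, Hp and Wfdc21, and it was also rich in sebaceous gland RNA. Without early 3 edgeR called 1057 genes higher and 553 lower, and the log2 fold changes of Saa3, Lrg1, Hp and Wfdc21 were 3.81, 1.81, 1.33 and 1.81. Without any 1 of early 1, 2, 4 or late 1, 3, 4, 5 the number higher was 99, 88, 38, 83, 39, 36 and 66, in that order, and the number lower was 113 without early 4 and 214, 106, 162 and 180 without late 1, 3, 4 and 5. Without late 2 edgeR called 498 genes higher. With libraries rich in 18S only it called 4 higher and 0 lower, with 2 fewer late libraries. Scaling to library totals gave 8923 higher and 137 lower, because it moves the median gene from 0.01 to 0.86 on the log2 scale. Size factors by relative log expression gave 201 higher and 338 lower.

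Against the untreated group, which had neither αCTLA-4 nor surgery, 134 of 13547 genes tested were higher (0.989%) and 272 lower (2.01%) in late by edgeR. None of the 5 genes was called in that fit. Under the settings tried 0 to 3 of 5 were, 3 only on library totals, where 7484 of 13547 genes were higher. Nothing is read from these counts. DESeq2 called 268 genes higher and 540 lower, library totals gave 7484 and 90, and 1177 and 1122 genes had an unadjusted p under 0.05. The log2 fold changes were 0.47 (SE 0.30) for Lrg1 and 0.46 (SE 0.25) for Hp. For Wfdc21 and Wfdc17 they were -0.12 (SE 0.41) and -0.44 (SE 0.36), and both turned positive on library totals, at 0.66 and 0.32, where the median gene moves to 0.91. That of Wfdc21 was also positive without untreated 4 (0.13), without late 2 (0.09) and with libraries rich in 18S only (0.20). Those of Lrg1 and Hp were 0.22 and 0.23 without late 4, and 0.62 and 0.57 without late 2. The number of genes called in late against untreated depended on single libraries. Without any 1 late library edgeR called 0 genes lower and at most 9 higher, and without untreated 3 both counts were 0. Without untreated 1, 2 or 4 it called 47, 66 and 79 higher and 110, 272 and 120 lower, in that order. Without untreated 5 it called 184 higher and 409 lower.

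In the early against the untreated group edgeR called 0 of 12151 genes higher (0%) and 0 lower (0%), DESeq2 called 1 higher and 0 lower, and 256 and 283 genes had an unadjusted p under 0.05. The log2 fold changes of the 5 genes were all negative, -1.38 (SE 0.56) for Wfdc21, -1.18 (SE 0.48) for Wfdc17, -0.93 (SE 0.41) for Lrg1, -0.82 (SE 0.90) for Saa3 and -0.55 (SE 0.31) for Hp. That of Saa3 was -0.19 without untreated 1 and -1.80 without early 3. For Lrg1, Hp, Wfdc21 and Wfdc17, 3 of 5 early libraries were below every untreated library, and early 1, 2 and 4 were those libraries for each gene. How many of all genes show such a split was not computed, so nothing is read from this count. The 3 comparisons share groups, so their values are set side by side and are not independent of each other.

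**Figure D3:**
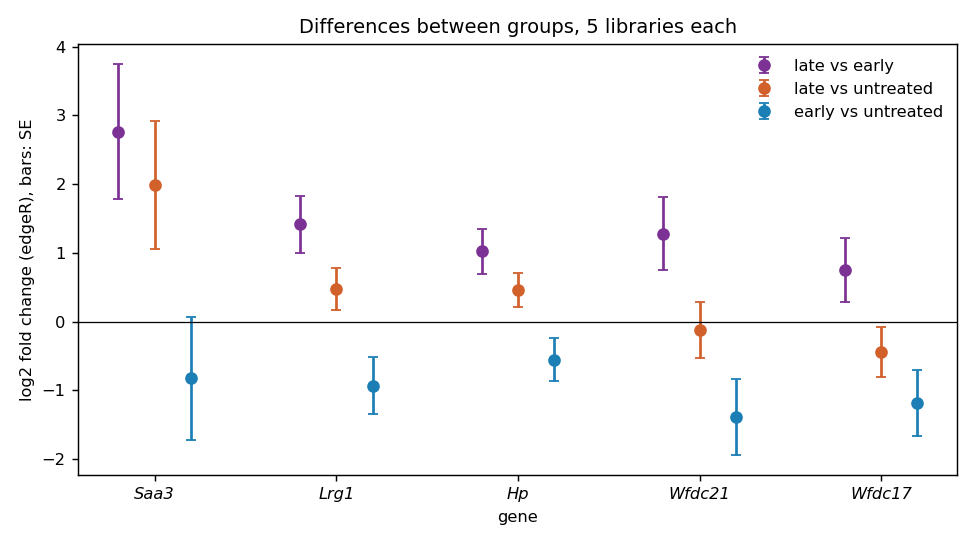
Log2 fold change (edgeR) of the 5 genes in 3 comparisons of 5 against 5 libraries, with bars of 1 SE. Late over early is positive for each gene (0.75 to 2.76) and early over untreated negative for each (-1.38 to -0.55), while late over untreated is positive for Saa3, Lrg1 and Hp and negative for Wfdc21 and Wfdc17.

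Markers of neutrophils, the cells that carry haptoglobin and LRG1 in their granules, varied across the same libraries. The 10 markers, of which S100a9 was the most abundant and none was at 0 in any library, summed to 7525, 9902, 3684, 10645 and 7904 TMM CPM in untreated 1 to 5. They summed to 2992, 1786, 5961, 2503 and 5803 in early 1 to 5, and to 9485, 4438, 9398, 13176 and 6349 in late 1 to 5. The libraries low for the acute-phase genes, early 1, 2 and 4 and untreated 3, had the 4 lowest sums, whereas by the mean log2 level of the markers late 2 (6.22) lay below early 1 (6.26). Of the 10 markers, 1 was called higher in late than in early, the collagenase gene Mmp8, singled out after its values were seen (log2 fold change 1.81, SE 0.48, adjusted p = 0.0496 by edgeR, lost in 8 of 10 fits without 1 library), and the median log2 fold change of the 10 was 1.09, with 8 of 10 above 0, against 0.01 over all genes tested. In late against untreated mice 5 of 10 were above 0, and in early against untreated mice 0 of 10 were, with a median of -1.02.

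Relative to the mean log2 level of these markers, the late minus early difference of Hp went from 1.08 to 0.18 and that of Wfdc17 from 0.94 to 0.05. For Lrg1 it went from 1.56 to 0.66, for Wfdc21 from 1.58 to 0.68 and for Saa3 from 2.71 to 1.81. In the early and late groups these relative levels had SDs of 0.35 and 0.38 for Lrg1 (n = 5). The SDs were 0.69 and 0.30 for Wfdc21, 1.42 and 1.38 for Saa3, 0.14 and 0.47 for Hp and 0.54 and 0.47 for Wfdc17. The late minus untreated differences hardly moved, from 0.48 to 0.45 for Lrg1, from 0.44 to 0.42 for Hp and from 1.96 to 1.93 for Saa3, since the marker mean was 7.24 ± 0.65 in the late and 7.21 ± 0.86 in the untreated group (SD, n = 5). In the early group it was 6.34 ± 0.69. The part that neutrophil number has in the level of these genes was not tested.

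**Figure D4:**
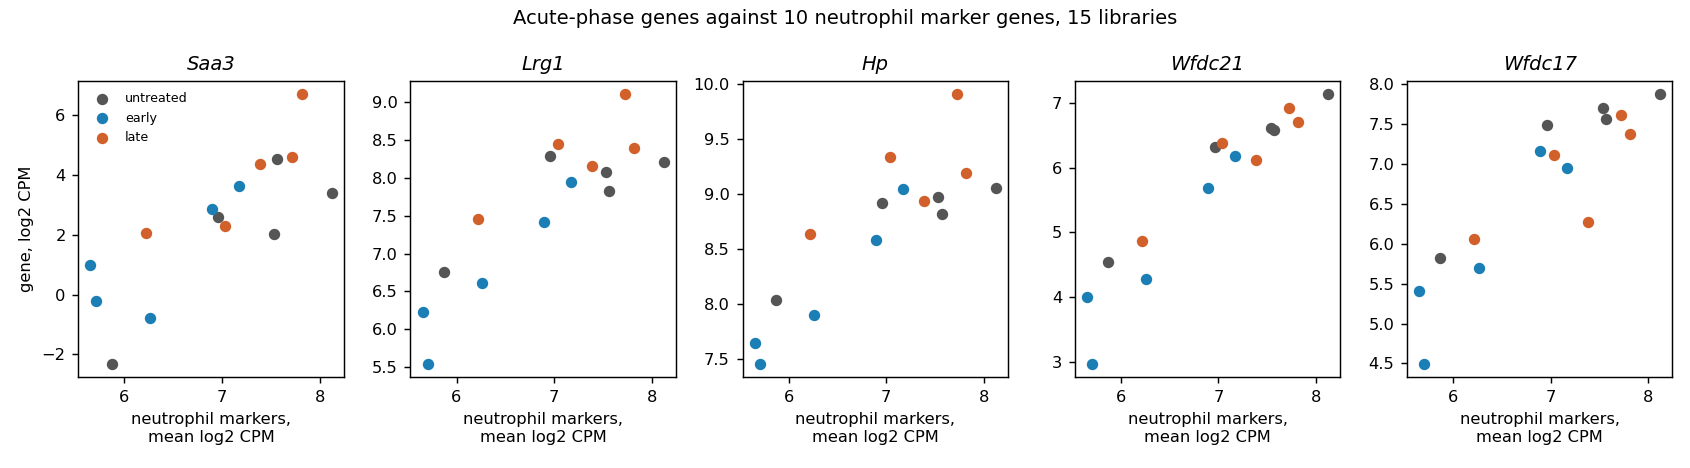
Log2 CPM of each of the 5 genes (vertical axes) against the mean log2 CPM of 10 neutrophil marker genes (horizontal axes); each point is 1 of 15 libraries, colored by group. Levels of Lrg1, Hp, Wfdc21 and Wfdc17 are lowest in early 1, 2 and 4 and untreated 3, and late 2 lies above these at a marker level below that of early 1.

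Hepatocyte RNA was close to the limit of detection. The 10 hepatocyte markers summed to between 0.804 and 5.20 TMM CPM in the 15 libraries, Apoh was the most abundant of them, and albumin (Alb) had 1 count in all, in late 5. Of 22 acute-phase genes made mainly by hepatocytes, 6 were expressed highly enough to be tested in late against early, with a median log2 fold change of 0.72. The most abundant was the complement gene C3, at 50.4 ± 16.9 TMM CPM in the untreated, 52.5 ± 19.8 in the early and 95.9 ± 34.3 in the late group (SD, n = 5; late against early log2 fold change 0.88, SE 0.29, adjusted p = 0.0919 by edgeR). C4b, which encodes complement component 4, was the 1 gene of this list called higher than in early (1.31, SE 0.34, adjusted p = 0.0488). It stood at 24.8, 9.10, 10.6, 12.9 and 12.4 TMM CPM in late 1 to 5 against 2.89 to 9.31 in the early libraries. That call was lost in 8 of 10 fits that left out 1 library, with 0.99 and an adjusted p of 0.0874 without late 1. Against the untreated group the 1 gene called was Lbp, which encodes the lipopolysaccharide binding protein (1.21, SE 0.27, adjusted p = 0.0339), and 9 of 10 such fits lost it. Lbp is outside the rule for named genes and was chosen after its values were seen.

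Among 12 innate defense and acute-phase genes that leukocytes express, 11 were tested and 0 were called in late against early by edgeR, 9 of them with a log2 fold change above 0 and a median of 0.91. Lcn2, which encodes the iron-sequestering protein lipocalin 2, averaged 479 ± 180 TMM CPM in the late, 346 ± 144 in the untreated and 171 ± 124 in the early group (SD, n = 5), the order seen for Lrg1 and Hp. Its late against early log2 fold change was 1.49 (SE 0.45, adjusted p = 0.0686 by edgeR). Chil3, a chitinase-like gene of myeloid cells, was the most abundant and differed in order. It stood at 792, 820.4, 1028, 772 and 1018 TMM CPM in late 1 to 5, at 362, 194, 723, 291 and 769.8 in early 1 to 5 and at 567, 241, 154, 383 and 303 in untreated 1 to 5. It was called higher in late than in untreated mice (1.43, SE 0.29, adjusted p = 0.0261), not against early (0.94, SE 0.34, adjusted p = 0.122), and the first call was lost in 7 of 10 fits without 1 library, with adjusted p up to 0.0712.

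Of the 21 other genes with WAP domains 3 were tested and 0 called by edgeR. Slpi, the secretory leukocyte protease inhibitor, averaged 100.4 ± 36.3 TMM CPM in the late, 78.2 ± 19.2 in the untreated and 53.1 ± 24.5 in the early group. Wfdc18, which lies next to Wfdc17, averaged 1.85 ± 0.79, 2.49 ± 0.67 and 0.95 ± 0.72 in the same groups, the order of Wfdc17 and Wfdc21 at a far lower level.

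Of 11 genes of cytokines that start the response 5 were tested and 0 called by edgeR in late against early, with a median log2 fold change of 0.55. Il1b, which encodes interleukin-1 beta, averaged 306 ± 129 TMM CPM in the late, 263 ± 89.3 in the untreated and 184 ± 76.0 in the early group. Clcf1, a cytokine of the interleukin-6 family, averaged 29.8 ± 9.5, 29.8 ± 2.7 and 35.0 ± 9.6. Il6 was below the level needed for testing, at a mean of 0.39 over the 15 libraries.

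Receptors and signal transducers of these cytokines were tested in 15 of 16 cases, and 2 were called higher in late than in early, both receptors of tumor necrosis factor. Tnfrsf1a stood at 129, 98.6, 142, 205 and 132 TMM CPM in late 1 to 5 and at 65.6, 45.9, 100.0, 55.9 and 90.4 in early 1 to 5 (log2 fold change 0.99, SE 0.24, adjusted p = 0.0354 by edgeR). Tnfrsf1b differed by 0.69 (SE 0.17, adjusted p = 0.0415). Late 2 was the library of the late group that overlapped the early range in Tnfrsf1a and Tnfrsf1b. Each of these calls was lost in 7 of 10 fits without 1 library, with adjusted p up to 0.0978 for Tnfrsf1a and 0.127 for Tnfrsf1b. The median of the 15 was 0.69.

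Of 11 transcription factors of acute-phase genes 10 were tested and 0 called by edgeR. Stat3 averaged 184 ± 43.0 TMM CPM in the late, 152 ± 33.3 in the untreated and 115 ± 26.1 in the early group (late against early 0.69, SE 0.19, adjusted p = 0.0516), and Cebpb averaged 142 ± 44.5, 95.0 ± 33.4 and 82.4 ± 35.2. Among 8 feedback targets of STAT3 and NF-kB, 2 were called higher in late than in early. Zfp36, whose product speeds the decay of cytokine mRNAs, stood at 135 to 198 TMM CPM in late and at 73.0 to 122 in early libraries (0.90, SE 0.18, adjusted p = 0.0210), and was higher in 5 of 5 late libraries than in any early one. Bcl3, which encodes a nuclear regulator of NF-kB, stood at 34.2 to 55.1 against 14.4 to 29.7 (0.86, SE 0.18, adjusted p = 0.0250), also without overlap. The Zfp36 call was lost without early 4, late 3 or late 4, with adjusted p up to 0.0608. That of Bcl3 was lost without early 2 or late 1, 3, 4 or 5, with adjusted p up to 0.0671.

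Of 10 receptors reported for serum amyloid A, 1 was called higher and 1 lower in late than in early, with a median log2 fold change of 0.91. Tlr2, a receptor for bacterial lipoproteins, stood at 49.1, 25.2, 35.5, 71.1 and 51.0 TMM CPM in late 1 to 5 and at 12.4 to 25.2 in the early libraries (1.29, SE 0.27, adjusted p = 0.0250 by edgeR, lost in 6 of 10 fits without 1 library, adjusted p up to 0.0721). Cd36, a scavenger receptor, fell to 14.6, 8.34, 11.9, 12.7 and 13.2 in late 1 to 5 from 22.4, 27.5, 46.8, 75.4 and 83.2 in early 1 to 5. Its log2 fold change of -2.04 (SE 0.34, adjusted p = 0.0126) passed in 10 of 10 fits without 1 library, with adjusted p up to 0.0391. With libraries rich in 18S only, a fit with fewer late libraries, 0 genes were called lower and this call was lost. Against the untreated group its log2 fold change was -1.74 (SE 0.28, adjusted p = 0.0242), a call lost without untreated 3 or any 1 late library and on library totals.

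Of 8 partners of haptoglobin and of heme clearance 7 were tested, and 2 were called higher and 1 lower in late than in early. Lrp1, the receptor that takes up heme bound to hemopexin, stood at 181, 109, 104, 163 and 237 TMM CPM in late 1 to 5 and at 44.9 to 98.7 in the early libraries (1.37, SE 0.27, adjusted p = 0.0207 by edgeR), and lost its call without early 4 (adjusted p = 0.0549). Itgam, a chain of an integrin that binds haptoglobin, shares 67.4% of its exon bases with the overlapping gene Gm49368, so its counts are uncertain. It differed by 0.94 (SE 0.25, adjusted p = 0.0492), lost in 7 of 10 such fits, with adjusted p up to 0.133. Blvrb, a biliverdin reductase abundant in red cells, fell to 26.5 to 49.7 TMM CPM in late from 46.9 to 275 in early libraries (-1.94, SE 0.41, adjusted p = 0.0250). It lost that call without early 4 or late 3, 4 or 5, with adjusted p up to 0.0717. Against untreated mice the log2 fold changes were 1.57 for Lrp1 (SE 0.31, adjusted p = 0.0250) and -2.13 for Blvrb (SE 0.41, adjusted p = 0.0242). Both calls were lost without untreated 3, with an adjusted p of 0.0712, and without any 1 late library, that of Lrp1 without untreated 1 as well.

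All 7 red cell markers matched, of 8 listed, had negative log2 fold changes in late against early. Their median was -2.38, and 4 of them were called lower, among them the heme synthesis gene Alas2, singled out after its values were seen (-2.18, SE 0.44, adjusted p = 0.0215, lost without late 3, 4 or 5). Hbb-bs was the most abundant of the list, and none was at 0 in any library. The part of red cell RNA in the fall of Blvrb and Cd36 was not tested. Of 9 TGF-beta pathway partners of LRG1 0 were called by edgeR, with a median of 0.29. Tgfbr2 averaged 108 ± 9.02 TMM CPM in the late, 112 ± 18.7 in the untreated and 105 ± 12.8 in the early group, and Tgfb1 averaged 88.1 ± 15.6, 63.4 ± 3.24 and 68.6 ± 9.85.

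**Figure D5:**
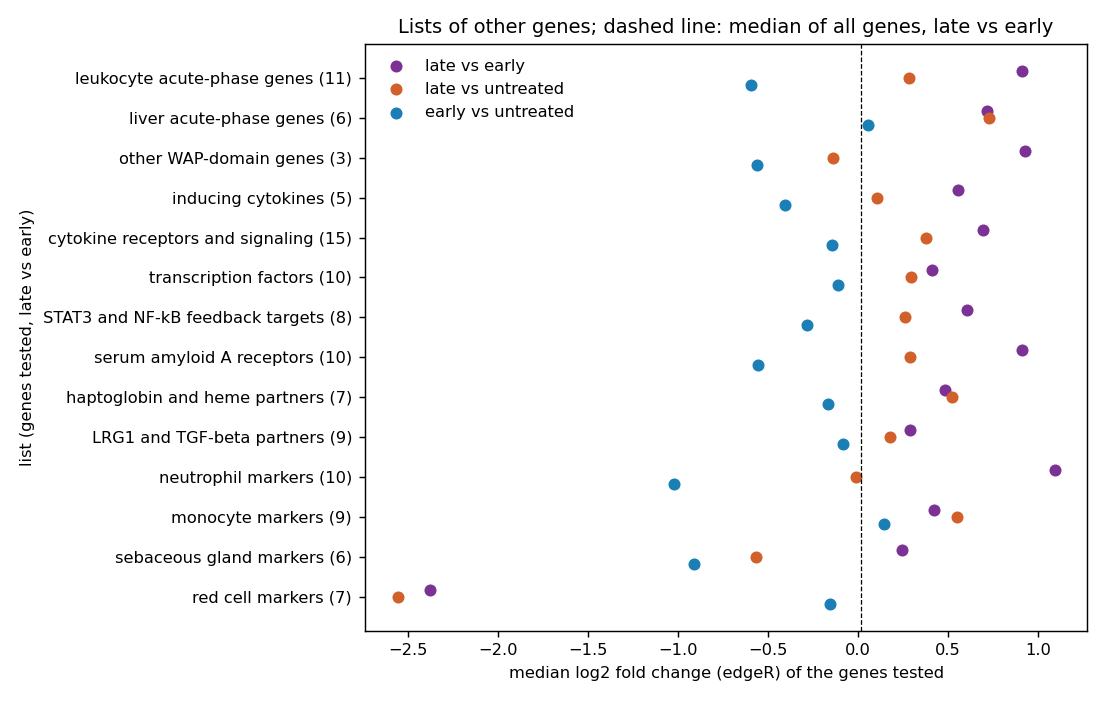
Median log2 fold change (edgeR, horizontal axis) of the tested genes of 14 lists in 3 comparisons, with the number of genes tested in late against early after each name. Medians of late over early run from -2.38 for red cell markers to 1.09 for neutrophil markers, and the dashed line is the median of all genes tested in that comparison, 0.01.

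Across all 15 libraries the gene ranked first in likeness differed for each of the 5 genes, whereas Pygl and S100a9 recurred at lower ranks. The top values lay too close together for these ranks to separate the 5 genes. Likeness was taken as Pearson's r of log2 CPM over 15 libraries, among the 9449 genes averaging 50 counts or more, the 5 genes themselves left out. Libraries share their group and their cell makeup, so r describes these libraries and carries no test. Hp was most like Anxa2 (r = 0.988), Selplg (0.988) and Pygl (0.985), and Lrg1 most like Rab31 (0.981), Pygl (0.981) and Lcn2 (0.980). Wfdc21 was most like Trem5 (0.975) and the neutrophil alarmin genes S100a9 (0.974) and S100a8 (0.973), and Wfdc17 most like Ifitm1 (0.973), S100a9 (0.970) and Tspo (0.964). Saa3 was most like Pla2g15 (0.924), Peli2 (0.911) and Lgmn (0.903), of which Pla2g15 and Lgmn encode lysosomal enzymes. For each of the 5 genes the first and second r differed by less than the SE of the first. That SE, from leaving out 1 library at a time, was 0.007 for Hp to 0.052 for Saa3. With group means subtracted, Rab31 went to rank 12, Trem5 to 11 and Pla2g15 to 6, and Anxa2 and Ifitm1 to 3. Among themselves, Lrg1 and Hp (0.984) and Wfdc21 and Wfdc17 (0.962) were closest, whereas Saa3 had r of 0.678 to 0.767 with the other 4 genes.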

How the data were processed

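Total RNA of cheek-bleed blood was sequenced as paired reads. Per the labels, the authors aligned them with STAR 2.7.9 to GRCm39, sorted them with SAMtools 1.7 and counted them per gene with HTSeq 0.13.5. The deposited values are raw counts per Ensembl gene for 15 libraries, with no normalization. The 5 counter lines that name no gene were left out, and of uniquely aligned pairs 43.6% to 48.0% fell on genes, 50.6% to 55.1% on none and 1.19% to 3.03% on several. Alignments that were not unique were not counted, and they were 44.1% to 75.2% of the counter's tally of genes, no gene, several genes and not unique. Of 55416 identifiers 54749 matched GENCODE M39, and 237 of 239 listed genes were found (not Ahsp and Lor). No 2 libraries were identical.

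Each pair of groups was fitted with edgeR 4.0.16 in R 4.3.3 (filterByExpr, TMM, quasi-likelihood test, Benjamini-Hochberg adjustment over all genes tested, threshold 0.05), and with DESeq2 1.42.0 as an alternative. The TMM factors ran from 0.425 to 1.92. Levels are TMM CPM over all 15 libraries, levels per kb use merged exon length, and log2 levels have a prior count of 2. The procedure was tested on simulated data. Alternatives were other size factors, library totals, hemoglobin and 18S genes removed, other filters, 1 fit of all 15 libraries, a replicate block and each library left out. After the data were seen, fits without the 18S-poor and without the sebaceous-rich libraries were added. The 5 genes and all lists were chosen with earlier results of these data known. Genes named from each list are the called genes with the largest absolute log2 fold change in late against early, at most 4 a list, or, with fewer than 2 called, the 2 most abundant, and Saa1, Saa2, Saa4, Slpi, Wfdc18 and the 3 genes most like each of the 5 genes. Promoter windows came from RefSeq.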

Additional observations from a re-analysis of the deposited data

Results flagged for a closer look

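In 5 of 114 groups of 5 libraries, 1 library lay far from the others of its group. Its gap to its neighbor was above 0.71 of the whole range, the 95% limit of Dixon's test, used here only to flag. About 1 in 20 independent groups would be flagged by chance. The 114 groups share the same 15 libraries and many of their genes vary together, so the count of 5 is not weighed against that share. Saa3 stood at 103 TMM CPM in late 1, and the next late library was at 24.2. C4b was also highest in late 1, at 24.8 TMM CPM against 12.9 in the next. Zfp36 stood at 122 TMM CPM in early 3 against 84.9, and Tgfbr2 at 123 in late 4 against 108. Selplg was lowest in untreated 3, at 261 TMM CPM against 402 in the next library.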

How the results depend on the processing

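For late against early, genes called higher numbered 761 with DESeq2, 201 with relative log expression factors, 8923 on library totals, 886 with no filter, 4 with 18S-rich libraries only, 725 without sebaceous-rich libraries and 36 to 1057 with 1 library left out. Genes lower numbered 646 with DESeq2, 137 on library totals, 0 with 18S-rich libraries and 106 to 553 with 1 library left out. Of the listed pathway genes, 8 higher in the main analysis became 31 with DESeq2, 5 with relative log expression factors, 74 on library totals, 5 without hemoglobin and 18S genes, 35 with no filter, 0 with 18S-rich libraries, 30 without sebaceous-rich libraries and 1 to 39 with 1 library left out, and 2 lower became 4 with DESeq2, 0 with 18S-rich libraries and 1 to 4 with 1 library left out. The log2 fold change of Hp was 1.79 on library totals, and those of Saa3, Lrg1, Wfdc21 and Wfdc17 were 3.51, 2.17, 2.04 and 1.54. For late against untreated, genes higher numbered 268 with DESeq2, 7484 on library totals, 0 with 18S-rich libraries and 0 to 184 with 1 library left out, and genes lower 540, 90, 0 and 0 to 409. Listed genes higher (3) became 8 with DESeq2, 72 on library totals, 6 with no filter, 1 with all 15 libraries in 1 fit, 0 with 18S-rich libraries and 0 to 3 with 1 left out, and those lower (2) became 1 on library totals, 0 with 18S-rich libraries and 0 to 2 with 1 left out. On library totals the log2 fold changes were 1.23 for Lrg1 and 1.26 for Hp, and those of Wfdc21 (0.66), Wfdc17 (0.32) and Tgfbr2 (0.91) turned positive. That of Wfdc21 was 0.20 with 18S-rich libraries and -0.36 to 0.13 with 1 library left out. For early against untreated, DESeq2 called 1 gene higher, and library totals 1 higher and 2 lower. The 18S-rich fits have fewer libraries, and library totals move the median gene to 0.86 and 0.91. The cause of the other changes was not tested.

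A fit that took replicate numbers as a block gave 368 higher and 305 lower genes for late against early, 230 and 377 for late against untreated, and 0 and 0 for early against untreated. In that fit the log2 fold change was 1.57 for Lrg1 in late against early and 1.47 for Saa3 in late against untreated, and of the 5 genes 1 was called in each of these, from which nothing is read. Listed genes then numbered 16 higher and 1 lower for late against early and 8 higher for late against untreated. Same-numbered libraries deviated together with r of -0.18 to 0.46 for late and early, 0.03 to 0.58 for late and untreated and -0.24 to 0.08 for early and untreated, with r over 0.1 in 1, 4 and 0 of 5 pairs. Of 10 libraries in each comparison 2, 5 and 0 were closest to the library of their own number. The labels tie the numbers to nothing else and not every pair was over 0.1, so the numbers were not taken to pair the mice, although late and untreated libraries leave this open.

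Depth limits Saa3 most, with 3 to 5 counts in early 1, 2 and 4 and 0 in untreated 3, whereas the other 4 genes had 44 counts or more in every library.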

Other observations

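Among genes of monocytes, by edgeR the fibronectin gene Fn1 (log2 fold change 1.64, SE 0.25, adjusted p = 0.0126) and the receptor gene Csf1r (0.75, SE 0.19, adjusted p = 0.0425) were called higher than in early mice, Fn1 in 10 of 10 fits without 1 library, whereas 7 of 10 lost Csf1r. These genes and Ccr2 were called higher than in untreated mice, calls lost in 8, 8 and 5 of 10 such fits for Fn1, Csf1r and Ccr2. Tissue macrophage markers gave 0 of 5 tested called by edgeR in late against early and 1 of 4 against untreated, Adgre1 (0.89, SE 0.18, adjusted p = 0.0250, lost in 7 of 10 such fits).

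In late against early 0 of 7 T cell, 0 of 6 B cell, 0 of 6 NK cell and 0 of 6 platelet markers were called by edgeR, with median log2 fold changes of -0.26, -0.33, -0.20 and -0.44, against 0.01 over all genes tested. In late against untreated 1 of 7 T cell markers was called lower (median -0.44), and 0 of the B cell, NK cell and platelet markers were called. The skin markers that follow are for late against early. Of cells that a skin bleed could add, sebaceous gland (6 tested, median 0.24), keratinocyte (1, -0.39), fibroblast (4, -1.40) and skeletal muscle (2, -0.59) markers had 0 called, and of 3 adipocyte markers tested (median 0.57, 2 of them above 0) Fabp4 was lower (-1.24, SE 0.30, adjusted p = 0.0392, lost in 6 of 10 such fits). The genes named here were chosen after their values were seen.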
